A study of Mus musculus with 2 samples.

Results

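The cells described are the Cd209a dendritic cells (DCs) of the mouse heart, counted 24 hours after injection of isoproterenol (ISO), a β-adrenergic agonist. CD45+ cells, the leukocytes, had been sorted alive from digested hearts of WT female C57BL6 mice and sequenced with the 10x Genomics 3′ kit, in which molecular identifiers (UMIs) mark single RNA molecules. The ISO group received 200 mg/kg intraperitoneally and the control group received vehicle. The cells of 3 hearts were pooled in 1 library per group, the labels give no age, and no other allele or agent was part of either group. No difference between the groups therefore has a replicate check, no test was made between them, and all 95% intervals below cover counting error only.

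A cell was counted as a Cd209a DC if it held at least 2 UMIs of Cd209a, at least 30 UMIs of H2-Aa, H2-Ab1, and Cd74 together, and few or no UMIs of genes of other lineages. The limits were at most 3 UMIs of the C1q genes of macrophages, 0 of Xcr1 and Clec9a of type 1 DCs, at most 2 of Ccr7 and Fscn1 of mature DCs, at most 2 of Siglech of plasmacytoid DCs, at most 2 of Cd79a, Cd79b, and Ms4a1 of B cells, and S100a8 and S100a9 of neutrophils under 1% of UMIs. Of 11078 cells that passed the quality filters, 277 met this rule, 37 of 5641 control cells and 240 of 5437 ISO cells. Because Cd209a and the MHC class II genes chose the cells, their high levels are a description and not a result.

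Type 2 conventional DCs arise from bone marrow precursors under the growth factor FLT3L and the transcription factor IRF4, take up antigen in tissue, and present it on MHC class II to CD4 T cells. They carry C-type lectins such as CD209a and CLEC10A, which bind sugars on microbes and on dying cells. Monocytes that enter an inflamed tissue can acquire MHC class II and CD209a too, so FLT3 and ZBTB46 on one side, and FCGR1 (CD64) on the other, are among the genes commonly used to tell these origins apart.

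The control Cd209a DCs held 437042 UMIs in all and the ISO Cd209a DCs 2338607. The median control Cd209a DC had 11815 UMIs on 3041 genes and the median ISO Cd209a DC had 8481 UMIs on 2596.5 genes, which is the reverse of the order over all kept cells (4790 against 8537 UMIs). Mitochondrial transcripts made up a median of 2.38% and 2.07% of UMIs. The libraries shared 15 barcodes, and 0 of these were Cd209a DCs.

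At the Cd209a limit in the ISO library, the 58 cells with 1 UMI that met all other limits had Clec10a at 176 CPM (UMIs per 1000000 summed UMIs) and Ckb at 764 CPM, and the 49 members with 2 UMIs had 269 and 936 CPM. In the same 2 sets, Apoe was at 969 and 947 CPM and Lyz2 at 7495 and 4160 CPM. At the C1q limit, the 6 members with 2 or 3 C1q UMIs had Apoe at 551 CPM. The 10 cells just outside, with 4 to 10, had it at 2529 CPM. Clec10a was at 392 CPM inside and 168 CPM just outside this limit, and Lyz2 at 3257 and 7473 CPM. Flt3 was at 36.7 and 8.84 CPM, from only 3 and 1 UMIs. In Apoe, Clec10a, and Lyz2, cells on either side of the C1q limit thus differed more than those at the Cd209a limit. Only 6 and 10 cells lay at the C1q limit. In the control, 11 of 37 members held 1 to 3 C1q UMIs, no cell fell between 4 and 10, and the 14 cells beyond 10 had Apoe at 9427 CPM.

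The share of Cd209a DCs was higher after ISO. They made up 0.656% of control cells (95% exact Clopper-Pearson interval 0.462 to 0.903) and 4.41% of ISO cells (3.88 to 4.99), a 6.73-fold difference and a log2 ratio of 2.75 (2.25 to 3.25). Type 1 DCs, chosen by Xcr1 and Clec9a, were at 0.833% and 1.14%, a log2 ratio of 0.45 whose interval of −0.09 to 1.0 includes 0. Barcodes high in Ly6c2, a gene of classical monocytes, were at 4.08% and 13%, and C1q-rich macrophages were at 35.9% and 26.4%. The Cd209a DC share was thus the one with the largest ratio of these 4. The control Ly6c2 barcodes also held NK cell transcripts, with NK genes at 15117 CPM against 170 CPM after ISO. Their ratio is therefore not one of monocytes alone, and the ranking against monocytes is uncertain. As shares of 1 sorted sample, these values do not separate more cells of a type from fewer cells of the others.

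**Figure D1:**
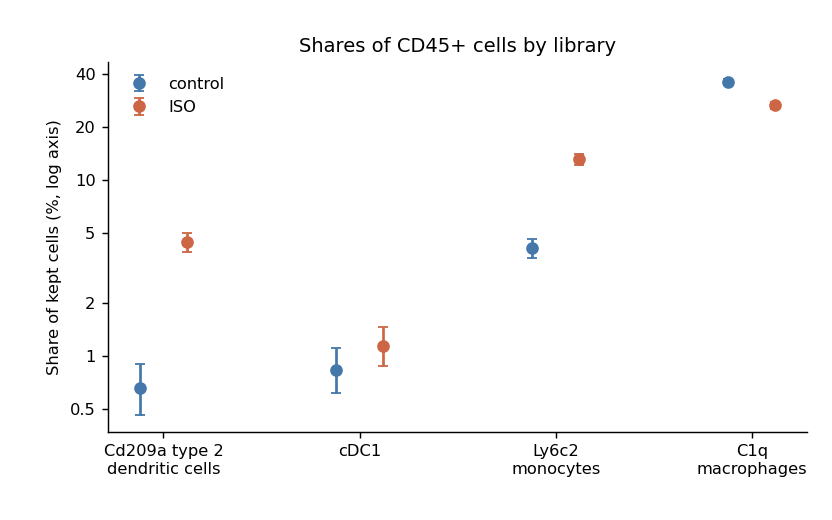
Share of all kept cells, in percent on a log axis, of 4 kinds of cells in the control and ISO libraries, with exact 95% Clopper-Pearson intervals as bars. Cd209a DCs lie at 0.656% and 4.41%, and the intervals of type 1 DCs (0.833% and 1.14%) overlap.

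The direction held with other denominators, but the size did not. Without B cell barcodes, of which the control had 471 and the ISO library 27, the shares were 0.716% and 4.44%. Non-B barcodes with at least 30 MHC class II UMIs numbered 3641 in the control and 2040 in the ISO library. Cd209a DCs were 37 (1.02%) and 240 (11.8%) of them, a log2 ratio of 3.53. This denominator was not clear of B cell RNA, as control MHC class II barcodes without Cd209a were rich in B cell transcripts. The size of its ratio was therefore uncertain. When every cell was first thinned to 2000 UMIs, with limits lowered to match, 33 of 5388 control cells (0.612%) and 191 of 5434 ISO cells (3.51%) met the rule. Of the members, 19 control and 61 ISO cells held a UMI of Flt3, and the log2 ratio of this smaller class was 1.74.

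The type 2 DC genes that the rule did not use were present in both libraries. Clec10a (chr11:70156197-70170834, positions on GRCm38), the galactose-binding lectin of type 2 DCs, was at 304 CPM in control Cd209a DCs and 367 CPM in ISO Cd209a DCs, against 9.16 and 29.3 CPM in type 1 DCs, 11.3 and 18.7 CPM in Ly6c2 barcodes, and 44.7 and 43.8 CPM in C1q macrophages. Ckb (chr12:111669361-111672338), the brain-type creatine kinase, was at 476 and 935 CPM, against 23.5 and 85.3 CPM in Ly6c2 barcodes and 217 and 221 CPM in macrophages, but was higher in type 1 DCs, at 1157 and 1590 CPM. H2-DMb2 (chr17:34143307-34151555), which encodes a chain of the peptide editor of MHC class II, was at 80.1 and 129 CPM. Its neighbour H2-DMb1 (chr17:34153072-34160230) was at 950 and 1544 CPM. In type 1 DCs H2-DMb1 was at a like level in the control, 960 CPM, and at a lower one in the ISO library, 1043 CPM.

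Genes of DC and of monocyte origin were both detected. Flt3 (chr5:147330741-147400489), the receptor for FLT3L, was at 96.1 CPM in control and 41.5 CPM in ISO Cd209a DCs, below type 1 DCs (143 and 152 CPM) and above Ly6c2 barcodes (27.9 and 11.3 CPM) and macrophages (7.16 and 7.34 CPM). Zbtb46, a transcription factor of conventional DCs, was at 27.5 and 30.4 CPM, against 2.33 CPM in ISO Ly6c2 barcodes and 5.96 CPM in ISO macrophages. Ccr2, the chemokine receptor of monocytes and of many type 2 DCs, was at 915 and 757 CPM. Fcgr1 was at 45.8 and 171 CPM, and was lower in ISO Cd209a DCs than in ISO macrophages (329 CPM) and ISO Ly6c2 barcodes (475 CPM). The lectins match the name of type 2 DCs, but Flt3 was seen in 19 of 37 control and 61 of 240 ISO members, so the name stands for the rule and not for an origin.

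The comparison cells were not pure. The control Ly6c2 barcodes carried NK and T cell transcripts, with all 9 NK and all 10 T cell genes tested at least 2-fold lower in the ISO Ly6c2 barcodes. Klrd1 alone was at 636 CPM there in the control and at 19.2 CPM after ISO. The control type 1 DC barcodes carried B cell transcripts, and 5 of 6 B cell genes tested were at least 2-fold lower after ISO.

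**Figure D2:**
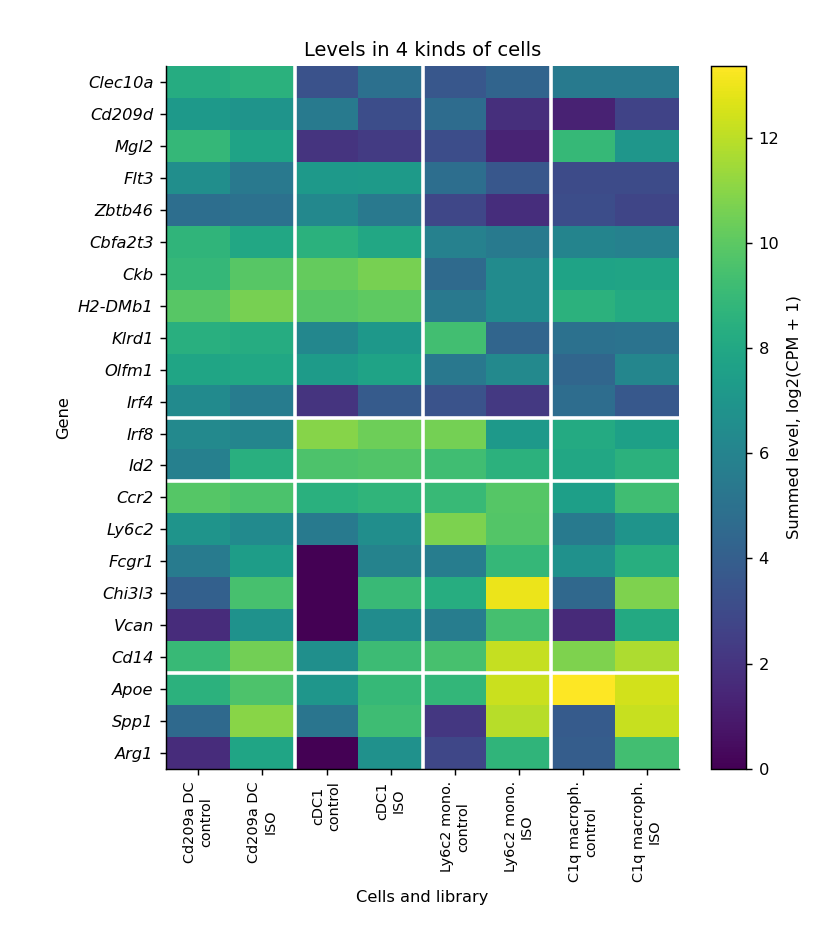
Levels of 22 genes as log2(CPM + 1), shown by colour, in Cd209a DCs, type 1 DCs, Ly6c2 barcodes, and C1q macrophages of the control and ISO libraries (1 library each). Rows are to be read across: Clec10a is high in the Cd209a DC columns (304 and 367 CPM), and Flt3 is highest in type 1 DCs (143 and 152 CPM).

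The Cd209 genes lie in a cluster on chromosome 8 and encode related lectins. In Cd209a DCs, Cd209a (chr8:3743397-3748984) had 519 UMIs in the control and 1739 in the ISO library, with a median of 9 (2 to 48) and 5 (2 to 30) UMIs per cell. Cd209d (chr8:3871824-3878555) had 66 and 275 UMIs, Cd209c 7 and 23, Cd209b 3 and 5, and Cd209e 0 and 14. Of the 66 control UMIs of Cd209d, 34 came from 1 cell. Cd209f and Cd209g had 0 UMIs in Cd209a DCs of either library, whereas C1q macrophages had 93 and 36 UMIs of them in the control and 2 and 1 in the ISO library. The macrophages also held 483 and 743 UMIs of Cd209a and 36 and 108 of Cd209d, from 2027 control and 1436 ISO cells. Reads of such related genes can be split between copies, so these counts are uncertain.

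Other genes were higher in the members than in all other kept cells together in both libraries, as a description since the rule chose the cells, but type 1 DCs held several of them at like levels. Klrd1, which encodes the NK receptor CD94, was at 348 and 308 CPM in Cd209a DCs, and at 73.5 and 43.8 CPM in the other cells. Olfm1, a secreted glycoprotein known from neurons, was at 233 and 248 CPM, against 20.8 and 83.2 CPM in the other cells and 159 and 217 CPM in type 1 DCs. Cbfa2t3, a transcriptional corepressor, was at 421 and 260 CPM, against 67.4 and 70.0 CPM in the other cells and 374 and 254 CPM in type 1 DCs. Vrk1, a nuclear kinase, was at 192 and 172 CPM, against 45.7 and 44.8 CPM, and 114 and 124 CPM in type 1 DCs. Napsa, an aspartic protease, was at 558 and 1099 CPM, against 192 and 397 CPM, and 426 and 766 CPM in type 1 DCs. Klrd1 in type 1 DCs was at 71.7 and 137 CPM. It is also an NK cell gene, and other NK genes stood lower in Cd209a DCs, with Nkg7 at 75.5 and 11.1 CPM.

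Between the libraries, 8016 genes had at least 20 UMIs in Cd209a DCs over both. With 0.5 UMI added to each sum, 813 of them, or 10.1%, were at least 2-fold higher in ISO cells, and 808, or 10.1%, were at least 2-fold lower. The median log2 ratio of all genes was −0.02. In these pooled libraries a lower level of RNA in each cell and fewer cells that hold the RNA cannot be told apart from a sum, so values per cell are given for the main genes. The gene lists below are described by their median and by the number of genes beyond 2-fold, to be read against these 10.1% in each direction.

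Most of the genes with the largest ratio upward were also detected in lymphocytes. T cell barcodes (68) and B cell barcodes (27) of the ISO library held macrophage and monocyte transcripts, such as Spp1 in 55.9% and 51.9% of them after thinning each cell to 2000 UMIs. Spp1, the secreted phosphoprotein osteopontin, was at 22.9 CPM in control and 2033 CPM in ISO Cd209a DCs, a log2 ratio of 6.4, but was found in 25.4% of the thinned ISO Cd209a DCs, below both lymphocyte shares. The same held for Chi3l3 (Ym1), at 16 and 705 CPM and in 15.4% of Cd209a DCs against 44.1% of T and 33.3% of B cell barcodes. It also held for Ccl2, at 108 and 1262 CPM and in 24.6% against 58.8% and 48.1%. No expression by Cd209a DCs is read from such shares. Whether the lymphocyte barcodes held free RNA or a second cell was not tested. Fcgr1 (21.7% against 30.9% and 37.0%) also lay below both lymphocyte shares, and Cd14 at 57.1% lay between the 55.9% of T and the 59.3% of B cell barcodes.

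Of the 15 named genes with the largest ratio upward, 4 were found in a larger share of ISO Cd209a DCs than of both lymphocyte classes. These were Ccl17, Ifitm1, AA467197, and Clec4n, and the binomial intervals were clear of each other for the first 3. The other 11 included Cxcl3, Dmkn, and Saa3, which had 0 UMIs in the control. Against the 3 counts that a sum of 0 allows, they were at least 26.4-fold, 17.4-fold, and 15.4-fold higher. Arg1, the arginase of activated macrophages, had 1 UMI in the control and 543 in the ISO library, a log2 ratio of 6.08 (4.18 to 11.97). Ccl7 had 2 and 578 UMIs (5.43, 3.90 to 8.80), and Vcan 1 and 263 (5.04, 3.13 to 10.9).

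**Figure D3:**
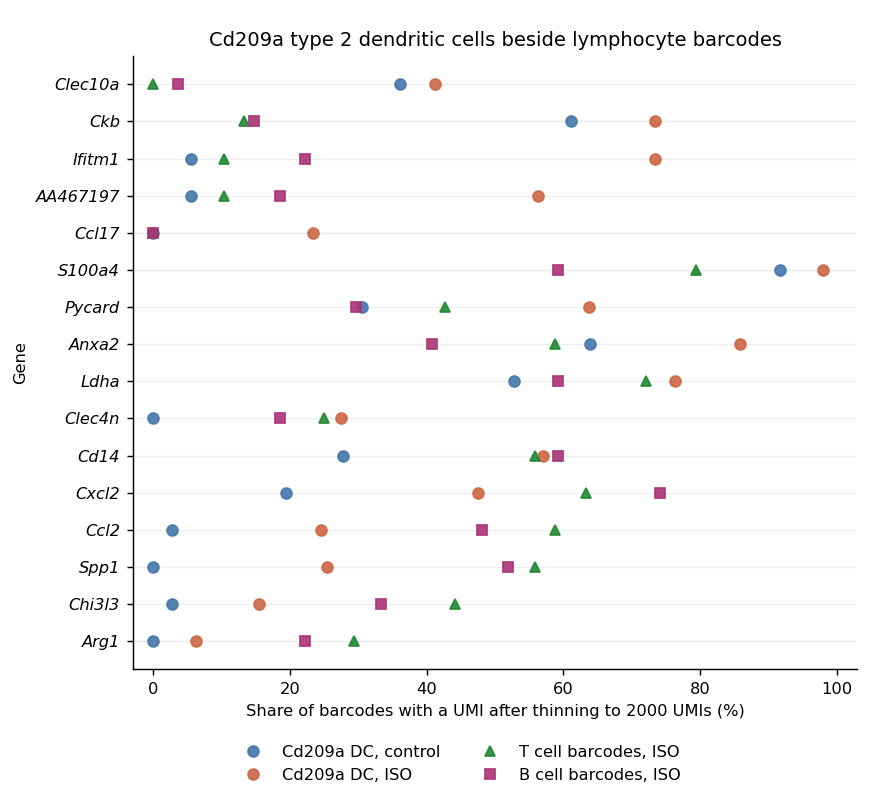
Percent of cells with at least 1 UMI of 16 genes after thinning to 2000 UMIs, in control and ISO Cd209a DCs (36 and 240 cells) and in ISO T and B cell barcodes (68 and 27 cells). Ccl17, Ifitm1, and AA467197 lie above both lymphocyte classes in ISO Cd209a DCs, and Spp1, Chi3l3, and Ccl2 lie below them.

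Ccl17 (chr8:94810453-94812036), a chemokine that attracts CCR4-bearing T cells, was at 20.6 CPM (9 UMIs in 3 of 37 cells) in control Cd209a DCs and 804 CPM (1881 UMIs in 78 of 240 cells) in ISO Cd209a DCs, a log2 ratio of 5.21 (4.36 to 6.42). After thinning, 0 of 36 control and 23.3% of ISO Cd209a DCs held it, against 0% of ISO T and B cell barcodes. A count of 0 allows a share of up to 8.33% of the 36 control cells, 4.41% of the 68 T cell barcodes, and 11.1% of the 27 B cell barcodes. Levels in the ISO library were 282 CPM in type 1 DCs, 55.5 CPM in macrophages, and 1.33 CPM in Ly6c2 barcodes. Thinned type 1 DCs held Ccl17 in 1 of 47 control and 6 of 62 ISO cells, with overlapping intervals. Single ISO Cd209a DCs ranged from 0 to 156 UMIs per 10000, and 10 cells held 55.4% of the Ccl17 UMIs. Ccl22 (chr8:94745590-94751699), which lies close to Ccl17 and binds the same receptor, was at 73.2 and 64.6 CPM, a log2 ratio of −0.20, which ranged from −1.34 among members with a Flt3 UMI to 3.92 without possible doublets. The ratio of Ccl17 was smaller, 2.25, among members with a Flt3 UMI, but 5 of the 6 control Ccl17 UMIs there came from 1 cell.

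Ifitm1 (chr7:140967221-140969825), an interferon-inducible membrane protein that restricts virus entry, was at 112 CPM in control and 1522 CPM in ISO Cd209a DCs, a log2 ratio of 3.75 (3.36 to 4.20). The median cell held 0 UMIs per 10000 in the control, with a highest value of 7.59, and 11.5 in the ISO library, with a range of 0 to 126. Unthinned, 9 of 37 and 214 of 240 cells held it, and thinned shares were 5.56% and 73.3%, against 10.3% of ISO T and 22.2% of ISO B cell barcodes. Ifitm1 was at 471 CPM in ISO type 1 DCs, 288 CPM in Ly6c2 barcodes, and 280 CPM in macrophages. Thinned type 1 DCs held it in 0 of 47 control and 28 of 62 ISO cells (45.2%). The higher ISO share of Ifitm1 was thus not particular to Cd209a DCs. Ifitm3 (chr7:141009586-141010770), its neighbour of the same family, was at 2052 and 3514 CPM, a log2 ratio of 0.77 (0.68 to 0.88). Ifitm1 was thus broadly detected in ISO Cd209a DCs, unlike Ccl17.

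AA467197 (chr2:122636986-122641191), known as Nmes1, encodes a small mitochondrial protein. It was at 32.0 CPM (5 of 37 cells) in control and 933 CPM (185 of 240 cells) in ISO Cd209a DCs, a log2 ratio of 4.81 (4.11 to 5.74). Thinned shares were 5.56% and 56.3%, against 10.3% and 18.5% of ISO T and B cell barcodes. Its ISO level was 128 CPM in type 1 DCs, 163 CPM in Ly6c2 barcodes, and 213 CPM in macrophages. Thinned type 1 DCs also held AA467197 in a larger share after ISO, 2.13% of control and 16.1% of ISO cells. Clec4n, which encodes the lectin dectin-2 for fungal mannans, was at 22.9 and 250 CPM, and its thinned share of 27.5% was near the 25% of T cell barcodes.

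**Figure D4:**
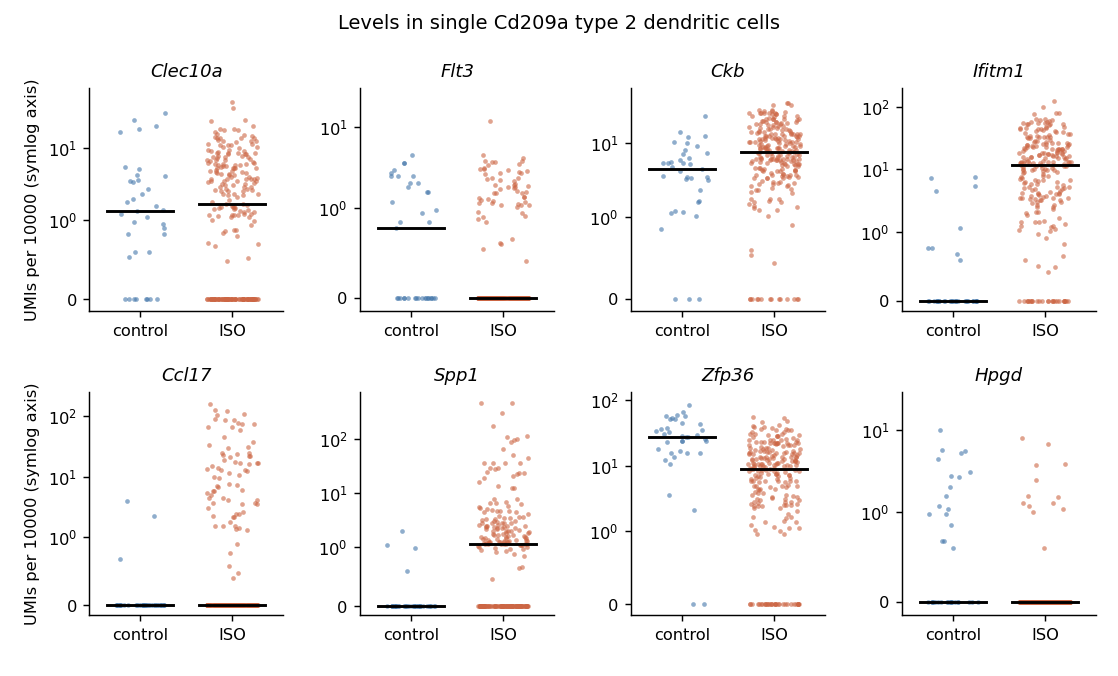
UMIs per 10000 UMIs of each cell for 8 genes in the 37 control and 240 ISO Cd209a DCs, on a symmetric log axis, with 1 point per cell and a line at the median. Ifitm1 moves from a median of 0 to 11.5, Ccl17 has a median of 0 in both with a tail of ISO cells up to 156, and Zfp36 moves from 28.1 to 8.95.

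Among the 10 type 2 DC genes tested, 9 lay within 2-fold of the control, with Cd209a itself at −0.68, and the median log2 ratio of all 10 was 0.28. Ckb had the largest positive ratio, 0.97 (0.77 to 1.19), with a median of 4.48 UMIs per 10000 in control and 7.62 in ISO cells. It was in 34 of 37 and 226 of 240 cells, and thinned shares were 61.1% and 73.3%, against at most 14.8% of ISO lymphocytes. Clec10a had a log2 ratio of 0.27 (0.01 to 0.55), with UMIs in 29 of 37 and 155 of 240 cells and thinned shares of 36.1% and 41.3%, against at most 3.70% of ISO lymphocytes. Leaving out possible doublets turned its ratio to −0.18.

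Mgl2 (chr11:70130329-70137550), the CD301b lectin that is the neighbour and close relative of Clec10a, was the 1 type 2 DC gene that stood at least 2-fold lower. It was at 474 CPM in control and 215 CPM in ISO Cd209a DCs, a log2 ratio of −1.14 (−1.38 to −0.90), and C1q macrophages held it too, at 488 and 130 CPM. Unthinned, 18 of 37 and 67 of 240 cells held it, and thinned shares were 33.3% and 16.3%, against at most 1.47% of ISO lymphocytes. Without the members that held UMIs of any of 6 macrophage and monocyte genes, such as Spp1, Chi3l3, and Apoe, which left 12 control and 62 ISO cells, Mgl2 was at 324 and 361 CPM, a ratio of 0.14. The lower level was thus seen among members that held such transcripts, at 527 and 177 CPM, and not among the others.

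Of the 11 genes common to DCs, 2 were at least 2-fold lower, 0 were at least 2-fold higher, and the median was −0.20. Flt3 had 42 UMIs in 19 of 37 control cells and 97 UMIs in 61 of 240 ISO cells, a log2 ratio of −1.22 (−1.75 to −0.65), with thinned shares of 22.2% and 7.92% against at most 1.47% of ISO lymphocytes. In type 1 DCs Flt3 was at 143 and 152 CPM. Haao, an enzyme of tryptophan breakdown, had only 7 and 19 UMIs. Zbtb46 had a ratio of 0.10, and Cbfa2t3 of −0.70.

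The transcription factors of type 2 DCs had a median log2 ratio of −0.26 over 15 genes. Irf4, which directs the type 2 lineage, was at 82.4 and 48.3 CPM (−0.78), Klf4, which it needs for part of that lineage, at 240 and 152 CPM (−0.67), and Irf8, the factor of type 1 DCs, at 77.8 and 65.9 CPM, far below its 1939 and 1375 CPM in type 1 DCs. Bcl6, a repressor used by DCs, was at 70.9 and 29.9 CPM, a log2 ratio of −1.26. Id2 (chr12:25093799-25097140), an inhibitor of E proteins, was the 1 factor at least 2-fold higher, at 54.9 CPM (7 of 37 cells) and 345 CPM (147 of 240 cells), a log2 ratio of 2.62 (2.07 to 3.30). Without the members that held the 6 macrophage and monocyte genes, the ratio was 0.47, but all 13 control Id2 UMIs left there came from 1 cell. Its thinned share of 32.9% lay below the 47.1% of ISO T cell barcodes, which express Id2 themselves, and above the 14.8% of B cell barcodes.

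Genes of MHC class II presentation had a median log2 ratio of 0.08 over 15 genes, with 0 at least 2-fold higher and 2 at least 2-fold lower. H2-Ab1, H2-Aa, H2-Eb1, and Cd74 lay between −0.32 and −0.21, with the first 2 and Cd74 part of the rule. The 2 lower genes were H2-Oa, at 45.8 and 12.8 CPM, and H2-Ob, at 86.9 and 25.7 CPM, which together form the inhibitor of the peptide editor H2-DM. The editor's chain H2-DMb1 was at 950 and 1544 CPM, a log2 ratio of 0.70 (0.55 to 0.85), and H2-DMb2 had a ratio of 0.67. Ifi30, the lysosomal thiol reductase that unfolds antigen, was at 1069 and 2011 CPM (0.91), with thinned shares of 80.6% and 95.4% against at most 55.6% of ISO lymphocytes. The ratios of the editor and the reductase stayed under 2-fold. Those of H2-Oa and H2-Ob fell short of it in some alternatives, at −0.75 for H2-Oa without possible doublets and at −0.54 for H2-Ob without the members that held the 6 macrophage and monocyte genes named for Mgl2. H2-Oa and H2-Ob are also B cell genes, and Ighm was at 84.7 and 29.9 CPM in the same cells. Whether B cell RNA had a part in these values was not tested.

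Proteases and the proteasome were higher almost throughout. Of 37 proteasome genes, 36 had a log2 ratio above 0, 9 were at least 2-fold higher, 0 were at least 2-fold lower, and the median was 0.81. After thinning, 5 of the 9 were in a larger share of ISO Cd209a DCs than of both ISO lymphocyte classes. The intervals were clear of each other for 0 of them. The median cell devoted 45.9 UMIs per 10000 to the list in the control and 78.5 in the ISO library. Psmd7, a lid subunit, was at 66.4 and 180 CPM, and Psmb2, a core subunit, at 110 and 286 CPM. Psmb9, the interferon-inducible core subunit, was the 1 gene below 0, at 188 and 145 CPM (−0.38). The same list had medians of 0.68 in type 1 DCs, 0.43 in Ly6c2 barcodes, and 0.93 in macrophages. Of 10 cathepsins and lysosomal proteases, 3 were at least 2-fold higher and the median was 0.72, and of these 3 only Ctsz (510 and 1193 CPM) was in a larger share of ISO Cd209a DCs, 92.5%, than of ISO T and B cell barcodes.

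MHC class I genes had a median of −0.42 over 15 genes, with 4 at least 2-fold lower. B2m, the light chain, was at 1723 and 1111 CPM (−0.63), and Tap1, the peptide transporter, at 190 and 109 CPM (−0.81). The 4 lower genes were H2-Q6, H2-Q7, H2-Q4, and Nlrc5, the class I transactivator, at 34.3 and 11.1 CPM. The H2-Q genes are near-identical copies and uncertain. The chaperone Calr went the other way, at 705 and 1402 CPM (0.99). The MHC class I list had medians of −0.47 in type 1 DCs, −1.06 in Ly6c2 barcodes, and −0.73 in macrophages.

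Of 12 costimulation genes, 1 was at least 2-fold higher and 0 at least 2-fold lower, with a median of −0.16. Cd80, the higher gene, was at 34.3 CPM in control and 91.1 CPM in ISO Cd209a DCs, a log2 ratio of 1.36 (0.65 to 2.27), which was 0.50 when cells were thinned before summing. Cd86 was at 135 and 266 CPM, a log2 ratio of 0.97 (0.59 to 1.39), with UMIs in 25 of 37 and 193 of 240 cells and thinned shares of 19.4% and 42.1% against at most 18.5% of ISO lymphocytes. CD80 and CD86 are the ligands of CD28 on T cells. Cd83 (1233 and 888 CPM), Cd40 (64.1 and 41.9 CPM), and Tnfsf9 (1400 and 995 CPM), the 4-1BB ligand, had ratios of −0.47, −0.63, and −0.49, all within 2-fold.

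Chemokines had a median log2 ratio of 1.56 over 18 genes, with 10 at least 2-fold higher and 0 at least 2-fold lower, but only Ccl17 of these 10 was in a larger share of ISO Cd209a DCs than of ISO lymphocytes. The median became −0.15 without the members that held UMIs of the 6 macrophage and monocyte genes named for Mgl2. In the control, 3 cells held 50.9% of the list's UMIs. The list had medians of 3.95 in type 1 DCs, 3.22 in Ly6c2 barcodes, and 0.86 in macrophages. Cxcl2, a neutrophil attractant, was at 1197 and 5046 CPM, with 325 of its 523 control UMIs in 1 cell, and was found in 47.5% of thinned ISO Cd209a DCs against 63.2% and 74.1% of lymphocytes. Ccl5 (268 and 173 CPM), Cxcl16 (272 and 200 CPM), and Cxcl10 (201 and 154 CPM) had ratios of −0.64, −0.45, and −0.40, but Ccl5 was at 2.26 without possible doublets, Cxcl10 at 1.95 among members with 0 C1q UMIs, and Cxcl16 at 0.11 without the members that held the 6 genes.

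Cytokine genes were mixed, with 7 of 15 at least 2-fold higher and 4 at least 2-fold lower. Only Il1r2 and Osm of the 7 were in a larger share of ISO Cd209a DCs than of both lymphocyte classes. Il1b was at 5155 and 8254 CPM, a log2 ratio of 0.68, and the median cell held 25.1 and 37.2 UMIs per 10000. Its thinned shares were 83.3% and 77.9%, against 64.7% and 66.7% of ISO lymphocytes. Il10, the anti-inflammatory cytokine, had 20 UMIs in the control and 12 in the ISO library, a log2 ratio of −3.13, and its receptor chain Il10ra was at 229 and 97.1 CPM, a ratio of −1.24 (−1.58 to −0.88). Il10ra was in 31 of 37 control and 129 of 240 ISO Cd209a DCs, and in 50% and 18.3% after thinning.

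Glycolysis, HIF1 target, and chaperone genes stood higher as lists. Of 18 genes of glycolysis, 7 were at least 2-fold higher, 2 were at least 2-fold lower, and the median was 0.90, with 20.5 and 38.3 UMIs per 10000 in the median cell. Pkm, the last enzyme of the pathway, was at 325 and 1093 CPM (1.75), and Ldha, which makes lactate, at 329 and 841 CPM (1.35). Their thinned shares of 76.7% and 76.3% lay only just above the 73.5% and 72.1% of ISO T cell barcodes. The medians of this list in type 1 DCs, Ly6c2 barcodes, and macrophages were 1.01, 1.46, and 1.22, so the shift was seen in every kind of cell compared.

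Of 16 hypoxia-response genes, 9 were at least 2-fold higher and 1, Bnip3l, at least 2-fold lower, with a median of 1.13. Among the 9, only Anxa2, Ddit4, and Vegfa were in a larger share of ISO Cd209a DCs than of both lymphocyte classes. The intervals were clear of each other for Anxa2 alone. The list had medians of 1.03 in type 1 DCs, 1.78 in Ly6c2 barcodes, and 1.47 in macrophages. Anxa2, a membrane-binding annexin, was at 641 and 1543 CPM (1.27) and in 63.9% and 85.8% of thinned cells, against at most 58.8% of ISO lymphocytes. Of 23 heat shock and chaperonin genes, 4 were at least 2-fold higher, 0 were at least 2-fold lower, and the median was 0.68. These 4 were Cct3, Cct6a, and Cct7, which fold actin and tubulin as parts of one ring, and mitochondrial Hspa9. Nuclear genes of oxidative phosphorylation had a median of 0.39 over 72 genes, of which 64 lay above 0, and 7 genes of the mitochondrial genome had a median of −0.33. Nuclear and mitochondrial parts of the respiratory chain thus had medians of opposite sign.

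Iron and antioxidant genes had a median of 0.76 over 18 genes, with 7 at least 2-fold higher and 2 at least 2-fold lower. Only Gsr of the 7 was in a larger share of ISO Cd209a DCs than of both lymphocyte classes. Gsr, glutathione reductase, was at 29.7 and 136 CPM (2.14), and Mt2, a metallothionein, at 167 and 7.27 CPM (−4.49), with its UMIs in 7 of 37 control and 8 of 240 ISO cells. S100a4, a calcium-binding protein of motile cells, was at 2375 and 4882 CPM, a log2 ratio of 1.04, and was found in all 37 control and all 240 ISO cells, with medians of 17.2 and 46.0 UMIs per 10000. Pycard (chr7:127989708-127993867), the ASC adaptor of inflammasomes, was at 201 and 633 CPM, a log2 ratio of 1.65 (1.34 to 1.98). Its thinned shares were 30.6% and 63.8%, against 42.6% of ISO T and 29.6% of ISO B cell barcodes.

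**Figure D5:**
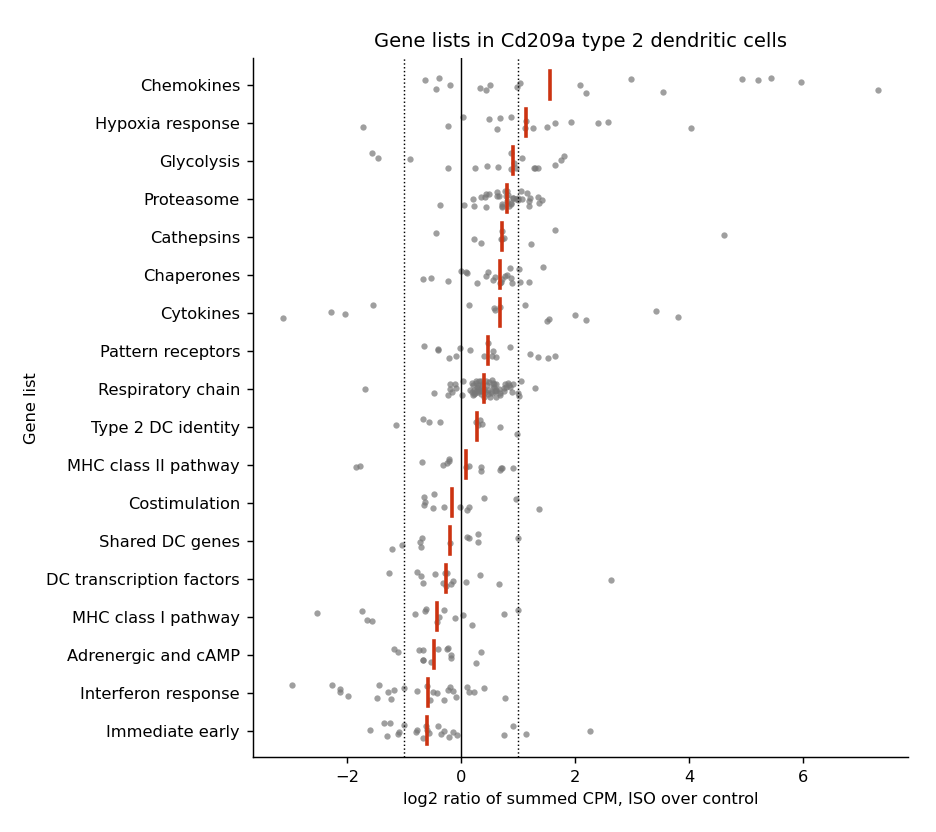
Log2 ratio of ISO over control in Cd209a DCs for the genes of 18 lists, with 1 dot per gene, a red bar at the list median, and dotted lines at 2-fold either way. Chemokines have a median of 1.56 and hypoxia genes one of 1.13, the proteasome genes (0.81) lie close together, and interferon (−0.57) and immediate early genes (−0.59) have medians below 0.

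Interferon-stimulated genes had a median log2 ratio of −0.57 over 26 genes, with 11 at least 2-fold lower and 0 at least 2-fold higher, although the summed list stood at 4684 and 5316 CPM and at 33.9 and 49.3 UMIs per 10000 in the median cell. Ifitm3 is part of this list and Ifitm1 is not. Rsad2 (viperin) was at 142 and 32.5 CPM and Ifit1 at 176 and 40.2 CPM, each with a ratio of −2.13, and the signal transducer Stat2 had a ratio of −1.29. In the control, 3 cells held 35.3% of the list's UMIs, and 43 of 62 Rsad2 UMIs came from 1 cell. The median was 0.16 without the members that held the 6 macrophage and monocyte genes. In type 1 DCs, Ly6c2 barcodes, and macrophages, the list had medians of 0.85, 0.12, and 0.16.

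Immediate early genes, which are induced within minutes by stimulation and also by tissue digestion, had a median of −0.59 over 23 genes, with 7 at least 2-fold lower and 2 at least 2-fold higher. The median cell held 178 UMIs per 10000 of the list in the control and 104 in the ISO library. Zfp36 (chr7:28376784-28380253), which encodes the mRNA decay factor TTP, was at 2977 and 1210 CPM, a log2 ratio of −1.30 (−1.39 to −1.20), with per-cell medians of 28.1 and 8.95 UMIs per 10000. Atf3 was at 1144 and 446 CPM (−1.36), and Fos at 1222 and 566 CPM (−1.11). Ier3 went the other way, at 204 and 978 CPM (2.26), but its ratio was −0.26 without the members that held the 6 macrophage and monocyte genes. The part of tissue digestion in these values was not tested.

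As ISO acts on β-adrenergic receptors, genes of the adrenergic and cAMP pathway were also examined. Of 14 genes of this pathway tested, 2 were at least 2-fold lower and 0 at least 2-fold higher, with a median of −0.47. The 2 were Nr4a3, a nuclear receptor induced by cAMP, at 373 and 165 CPM (−1.18), and Adcy7, an adenylyl cyclase, at 91.5 and 42.8 CPM (−1.11). Nr4a1 was at 1009 and 631 CPM (−0.68). The list also had medians below 0 in type 1 DCs (−0.21), Ly6c2 barcodes (−0.61), and macrophages (−0.32).

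Receptors for migration had a median of −0.21 over 14 genes. Ccr1, a receptor for inflammatory chemokines, was at 105 and 240 CPM (1.17) and in 31.3% of thinned ISO Cd209a DCs against at most 25.9% of ISO lymphocytes. Itgal, a chain of the integrin LFA-1, was the 1 gene at least 2-fold lower, at 91.5 and 36.8 CPM (−1.33), and Cxcr4 was at 389 and 210 CPM (−0.89). Hpgd (chr8:56294585-56321043), which inactivates prostaglandins, was at 114 CPM in control and 12 CPM in ISO Cd209a DCs, a log2 ratio of −3.25, with thinned shares of 25% and 2.50% and UMIs in 18 of 37 and 13 of 240 unthinned cells. Hpgd was also lower in ISO macrophages, at 302 and 65.1 CPM.

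Transcripts of lymphoid cells were also higher in the control members. The 4 T cell genes tested were all at least 2-fold lower in ISO cells, with a median of −2.38. The list summed to 165 CPM in the control and 27.8 CPM after ISO. Of 3 NK genes, 2 were at least 2-fold lower, and of 4 genes of type 2 innate lymphoid cells, 3 were, with Il1rl1 at 82.4 and 12 CPM and Gata3 at 48.1 and 2.99 CPM. In the control, 3 cells held 80.6% of the T cell UMIs, 92.4% of the NK UMIs, and 70.7% of the innate lymphoid UMIs. The B cell list had 1 gene tested, Ighm, while the defining marker Cd79a had 0 UMIs in the control and 1 in the ISO library. Of the myeloid lists, 9 of 10 inflammatory macrophage genes and 7 of 14 monocyte genes were at least 2-fold higher. Only 2 of the 9 and 0 of the 7 were in a larger share of ISO Cd209a DCs than of both lymphocyte classes. Among 8 resident macrophage genes, 3 were higher and 3 lower, and among 8 neutrophil genes 2 were higher and 1 lower. Xcr1 and Clec9a were at 0 by the rule. The part of other cells' RNA in the other genes was not tested.

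Cell cycle genes had a median of −0.53 over 17 genes, with 6 at least 2-fold lower, but they rested on few cells. Of 242 UMIs of 8 mitotic genes in control members, 168 came from 1 cell and 56 from another. Among ISO members, the richest cell held 26 of 112. Without the members that held at least 5 such UMIs, which left 34 control and 236 ISO cells, the log2 ratio of Mki67, the proliferation marker, moved from −2.47 to 0.12.

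ISO Cd209a DCs also differed among themselves. The 61 cells with a Flt3 UMI had Ccl17 at 142 CPM and Spp1 at 902 CPM, at a median depth of 8022 UMIs. The 179 without had 1019 and 2399 CPM, at 8612 UMIs. Clec10a (378 and 364 CPM) and Ckb (876 and 954 CPM) were close between these classes. After thinning, Ccl17 was in 3 of 19 cells with Flt3 (15.8%) and 53 of 221 without (24.0%), and Spp1 in 3 and 58. In all ISO members together, 10 cells held 55.4% of the Ccl17 UMIs, and 10 held 78.7% of the Spp1 UMIs. The 78 cells with a Ccl17 UMI had Mgl2 at 413 CPM, Ccl22 at 155 CPM, and Lyz2 at 3647 CPM, against 110, 17.0, and 4558 CPM in the 162 without. After thinning, Ccl17 was found in 14 of 39 cells with Mgl2 (35.9%) and in 42 of 201 without (20.9%). The 62 cells without UMIs of the 6 macrophage and monocyte genes still held Ccl17 at 452 CPM, Ifitm1 at 2025 CPM, Clec10a at 518 CPM, and Ckb at 1086 CPM. In the 178 cells with such UMIs the levels were 894, 1395, 329, and 896 CPM. These classes were defined by single transcripts in sparse counts and are descriptions of 1 library.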

How the data were processed

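CD45+ heart cells of 3 pooled mice per group were sequenced as 1 control and 1 ISO library. Per the submitters' processing notes, reads were demultiplexed with bcl2fastq, barcodes and UMIs were handled with UMI-tools 1.0.0, and reads were aligned to mm10 with STAR 2.7.3a and assigned to genes with featureCounts 1.6.4. The counts deposited by the authors are raw UMIs per gene and barcode. The annotation release and the handling of strand and of reads that match several genes are not given in the sources used here. The deposited treatment label gives ISO for both samples, and the control was taken from its title. The libraries held 47382455 UMIs in 5927 barcodes and 58495112 UMIs in 5514 barcodes.

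Barcodes were kept if their genes numbered above 500 and below 6000 and mitochondrial transcripts were below 25% of UMIs. The rule for Cd209a DCs and the 47 gene lists were chosen with earlier results of these data known. Type 1 DC barcodes held at least 2 UMIs of Xcr1 and Clec9a, Ly6c2 barcodes at least 3 of Ly6c2, macrophage barcodes at least 20 of the C1q genes, B cell barcodes at least 10 of Cd79a, Cd79b, and Ms4a1, and T cell barcodes at least 3 of CD3 genes, with further limits on genes of other lineages. No doublet caller was used beside the limits of the rule. Mature DC barcodes and MHC class II barcodes without Cd209a were rich in B cell transcripts in the control and served only as denominators.

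UMIs were summed over the cells of each kind and divided by their total (CPM). Log2 ratios are ISO over control with 0.5 UMI added. They and the CPM have exact 95% intervals from the counts, and shares have exact Clopper-Pearson intervals. UMIs are molecules of pooled cells, so intervals and floors cover counting error only. A sum of 0 was set to 3 counts for fold bounds. Shares of cells with a UMI were compared after thinning to 2000 UMIs, which left out 1 control Cd209a DC, with unthinned cell counts given for the main genes. The genes named are those of the rule and its markers, up to 4 genes each way per list with at least 50 UMIs and all genes of the type 2 DC, DC, and transcription factor lists, the 15 genes with the largest ratio each way with at least 100 CPM and 50 UMIs, and the 20 genes highest over other cells. Other list genes were named after their values were seen to state a count of 5 or fewer, a defining gene, or a contrast. T cell barcodes and 5 alternatives were added after the data were seen. The summed log2 ratio and its interval were tried on simulated sums that held counting error only. The rule, the shares, the thinning, and variation between cells were not simulated. Positions are from GENCODE M21 on GRCm38, and 274 of 278 named genes matched. Python 3.11.15, numpy 2.4.6, scipy 1.17.1, pandas 2.3.3, and matplotlib 3.10.9 were used. A few genes are not reported here.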

Additional observations from a re-analysis of the deposited data

How the results depend on the processing

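The share of Cd209a DCs was higher in the ISO library under every alternative run. Its log2 ratio of 2.75 moved to 1.74 with members holding a Flt3 UMI. It moved to 3.53 among non-B MHC class II barcodes and to 3.73 among Cd209a, type 1, and mature DC barcodes. Both of these denominators held barcodes rich in B cell transcripts in the control. The 813 genes at least 2-fold higher became 468 with 2 UMIs added, 1423 with a minimum of 1 UMI, and 1410 with the top cell of each gene left out. The 808 lower genes became 484 without possible doublets, 349 with Flt3 members, 370 without members holding 6 macrophage and monocyte genes, 365 after thinning, 389 with a minimum of 50 UMIs, 2961 with a minimum of 1 UMI, and 533 with the top cell left out. These counts are out of different numbers of genes. The 8016 genes tested became 5337 without possible doublets, 4877 with Flt3 members, 3940 without the 6 genes, and 3818 after thinning. With a minimum of 50 UMIs or 1 UMI they became 5730 or 14522. With 2 UMIs added or the top cell left out they stayed 8016. Adding 2 UMIs changes small sums the most. Leaving out the top cell took 1 of 37 control but 1 of 240 ISO cells from each gene while the totals were kept. By its construction this tends to raise the ratios. The median of all genes, −0.02 as reported, was −0.15 with 2 UMIs added, −0.27 with a minimum of 1 UMI, 0.21 with the top cell left out, and 0.11 without the 6 genes. Among 4913 values of 266 genes, 20 reversed a ratio beyond 2-fold, and 8 of 692 list medians reversed one beyond 0.5, as did 5 of 225 ratios of shares beyond 2-fold. A further 560 gene values, 19 list medians, and 39 ratios of shares moved without such a reversal. In some alternatives, such as a mitochondrial limit of 10%, all 266 genes stayed the same. Without the 6 genes, 102 stayed the same and 109 moved. These 2 counts were 139 and 98 without possible doublets, 157 and 84 with Flt3 members, and 134 and 91 after thinning. With no C1q UMI the reversals were cell cycle genes (0.073), S100a9 (3.34), and Top2a (1.32). Without possible doublets, which left 15 control and 115 ISO members, they were inflammatory macrophage genes (−0.034), S100a9 (2.96), Smc4 (0.25), H2-Q7 (0.23), Areg (−0.47), and F13a1 (−0.25). With Flt3 members they were glucocorticoid (0.12) and resident macrophage genes (0.51), S100a9 (3.27), Irf1 (0.35), Ltb (0.43), and Il1a (−0.53). Without the 6 genes they were chemokines (−0.15), interferon genes (0.16), Rsad2 (0.63), Mgl2 (0.14), Ltb (0.21), Clec4e (−0.58), Ier3 (−0.26), and Fn1 (−0.42). Without mitotic members Mki67 moved to 0.12, after thinning glucocorticoid genes and Nr3c1 both moved to 0.56, with a minimum of 50 UMIs resident macrophage genes moved to 1.03, and with the top cell left out S100a9 moved to 3.35. At 1000 UMIs the ratios of shares of Cd209d (−0.034), Ifit1 (0.30), Irf4 (0.11), Irf8 (0.21), and Clec4d (−0.28) changed sign. The restrictions to Flt3 members, to members without the 6 genes, without mitotic cells, or without the top cell, and the thinned share, were chosen after seeing the data. Ratios that kept their sign but came within 2-fold included Cd80 (0.50) and Bcl6 (−0.78) after thinning, Nr4a3 (−0.75) and Il10ra (−0.91) with limits per 5000 UMIs, Adcy7 (−0.53) and Atf3 (−0.92) without possible doublets, and Itgal (−0.88) and Ccr1 (0.59) with Flt3 members. With 37 control members, genes near 20 UMIs rest on a few cells. No paired analysis was possible because each group has 1 library.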

Other observations

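Some gene lists have not yet been described. Receptors for pathogens had a median log2 ratio of 0.47 over 17 genes, with 4 at least 2-fold higher. Only Pycard of these 4 was in a larger share of ISO Cd209a DCs than of both ISO lymphocyte classes. Genes of actin and cell movement had a median of 0.51 over 20 genes, and 0 of them were beyond 2-fold either way. Cytosolic ribosomal protein genes had a median of −0.10 over 83 genes, with 2 at least 2-fold lower. Survival genes had a median of 0.23 over 15 genes, with Birc3, an inhibitor of apoptosis, at 259 and 108 CPM (−1.27), and Bcl2a1a, which has near-identical copies, at 52.6 and 147 CPM (1.45). The receptors for growth factors and cytokines had a median of −0.30 over 21 genes, in which the GM-CSF receptor chain Csf2rb was at 238 and 356 CPM (0.58) and Flt3 and Il10ra were the 2 genes at least 2-fold lower.

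Other lists gave few genes to test. Glucocorticoid-response genes had 4 at least 2-fold higher and 4 at least 2-fold lower of 13, with Fkbp5 at 22.9 and 62.4 CPM (1.38) and Tsc22d3 at 247 and 116 CPM (−1.10). Fc receptors had a median of 0.27 over 6 genes, and lectins one of 0.25 over 15. Marker lists of type 1 DCs, plasmacytoid DCs, and mature DCs had medians of −0.26, −0.22, and 0.15 over 5, 4, and 7 genes, with Ccr7, limited by the rule, at 16 and 18.8 CPM. Resident macrophage genes had a median of −0.66 over 8 genes, and neutrophil genes one of −0.21 over 8. Of the 133 control UMIs of S100a9, 131 came from 1 cell. Ltb was the 1 gene tested of the Esam-type subset (−1.17), and the 6 genes tested of the Clec12a-type subset had a median of −0.17. Gsn was the 1 fibroblast gene tested (0.54), Pf4 the 1 platelet gene (2.98), and 2 endothelial genes had a median of −0.80. Of the cardiomyocyte and erythroid lists, 0 genes reached 20 UMIs.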
